A study of Mus musculus with 24 samples.

Results

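The 4 red cell miRNAs described here are mmu-miR-144-3p, mmu-miR-144-5p, mmu-miR-451a and mmu-miR-486a-5p, written without the mouse prefix further on. They were chosen by name, as every probe on the array whose miRNA name was one of these 4, which gave 8 probes, 2 for each miRNA, among the probes for 1881 mouse miRNAs. The RNA came from the liver and the serum of male C57BL/6NJcl mice, and 24 1-colour Agilent arrays, 12 for each tissue, read its mature miRNAs. The mice were bought at 5 weeks of age and kept for 1 week before the diets began. The NASH group (non-alcoholic steatohepatitis model) received a choline-deficient high-fat diet (CDAHFD) with 0.1% methionine, and the control group received the solid chow CE-2. Tissue was collected, blood from the heart, when a diet had run for 1, 2 or 6 weeks (7, 8 or 12 weeks of age), so that tissue, diet and week made 12 groups of 2 arrays. The labelling with the dye Cy3 started, per the labels' protocols, from 100 ng of RNA for liver and from 2.5 ng for serum, extracted from 200 uL, so that the input was a fixed mass of RNA and not a fixed volume of blood or a fixed number of cells. Nothing in the labels ties the 2 arrays of a group to separate mice, and p-values measure no more than the array-to-array spread, which may be technical.

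miR-144 and miR-451a are made from 1 primary transcript that the erythroid factor GATA1 switches on in red cell precursors, and both stay in the circulating red cell after it has lost its nucleus. miR-451a is unusual in that its hairpin is too short for Dicer and is cut by Argonaute 2 instead, while miR-144 yields an arm from each side of its hairpin through Dicer. miR-486a comes from an intron of Ank1, the gene of erythroid ankyrin, and is also made in muscle. In liver these miRNAs are mostly read as blood held in the tissue, and in serum miR-451a is widely used to judge haemolysis, because lysed red cells release it. In a bulk sample, fewer cells of a type and less RNA per cell cannot be told apart.

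RefSeq sequences (GRCm38.p6) matched 3 of the 4 miRNAs. The mature sequences are shown because their seeds, bases 2 to 8 in capitals, differ from one another, so that the 3 miRNAs have no seed in common. None of the 1679 mature mouse miRNA names in that table shared any of the 3 seeds.
miR-144-3p: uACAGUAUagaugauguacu
miR-144-5p: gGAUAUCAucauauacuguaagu
miR-451a: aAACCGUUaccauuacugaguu
The closest relative of miR-144-3p among the miRNAs named further on is miR-101a-3p, whose first 7 bases are the same, and it is shown for that comparison.
miR-101a-3p: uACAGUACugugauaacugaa

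The hairpins are shown with the mature miRNAs in capitals, because the position of the arms is what sets the 3 products apart. Mir144 lies at chr11:78073005-78073070 on the plus strand and is 66 bases long, with miR-144-5p at bases 6 to 28 and miR-144-3p at bases 43 to 62. Mir451a lies at chr11:78073170-78073241 on the plus strand, 99 bases downstream, and its 22-base product at bases 17 to 38 of 72 runs into the loop. In the same annotation the gene Mir486 lies inside Ank1.
Mir144: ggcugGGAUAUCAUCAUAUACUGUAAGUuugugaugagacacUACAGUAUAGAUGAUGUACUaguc
Mir451a: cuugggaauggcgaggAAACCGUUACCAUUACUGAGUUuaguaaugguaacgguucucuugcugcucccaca

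Levels are log2 values of a probe's background-subtracted intensity relative to the array's own 75th percentile, taken over probes that were detected on all 12 arrays of its tissue. Signals below a floor of -5.47 in liver and -4.71 in serum were set to it, so that values at the floor have no order. The brightest probe stands for each miRNA, and levels of different miRNAs are not compared with each other. The liver marker miR-122-5p had an intensity of 36045 to 87879 in liver and 91.6 to 10988 in serum. More miRNAs were detected on the NASH arrays, 337 to 379 against 253 to 307 in liver and 313 to 399 against 235 to 362 in serum. All control arrays stood in slide columns 1 and 3 and all NASH arrays in 2 and 4, so that the column on the slide and the diet cannot be told apart. The diets of a week shared a slide, but the weeks did not: liver week 1 was on slide 2 and liver weeks 2 and 6 on slide 3, while serum weeks 1 and 2 were on slide 1 and serum week 6 on slide 2. A contrast of those weeks and a contrast of those slides cannot be told apart.

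**Figure D1:**
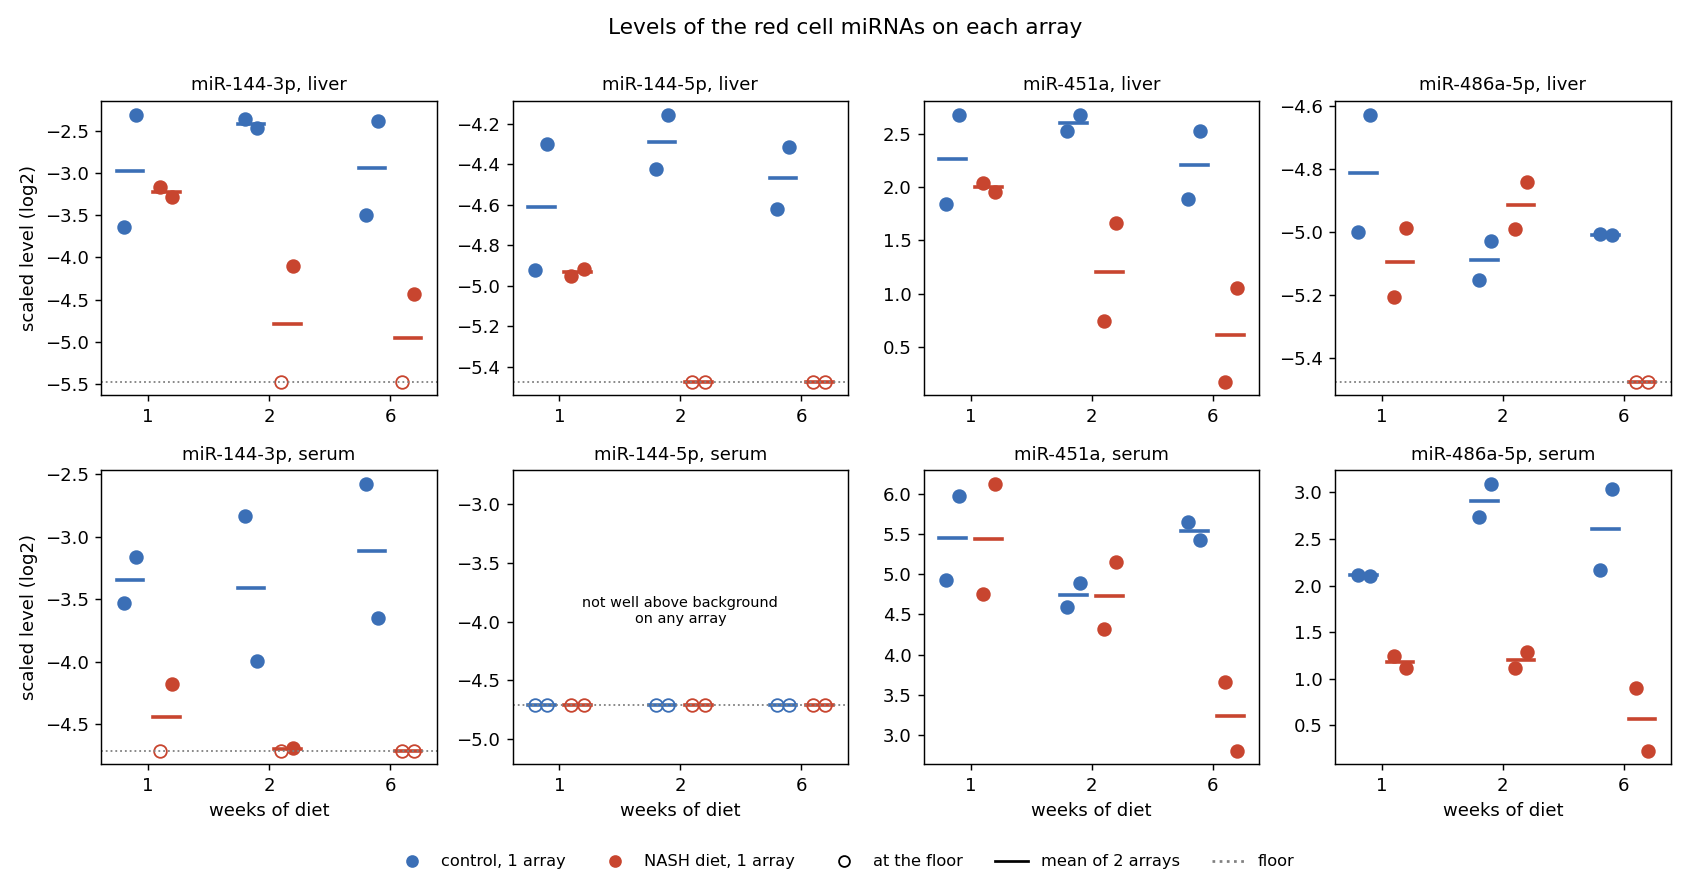
Level of each miRNA on each array (log2 of the scaled intensity, vertical axis, a scale of its own in each panel) against weeks of diet, liver above and serum below, with control in blue and NASH diet in red. Open circles lie at the floor (dotted), short lines are means of 2 arrays. In liver the NASH arrays of miR-144-3p, miR-144-5p and miR-451a lie below the control arrays at weeks 2 and 6, and in serum those of miR-144-3p and miR-486a-5p do so at all 3 weeks.

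In liver, miR-144-3p, miR-144-5p and miR-451a were lower on the NASH diet, and miR-486a-5p did not pass the test. Averaged over the 3 weeks, the level fell to 0.341 times control for miR-144-3p, to 0.559 times for miR-144-5p and to 0.471 times for miR-451a. Thus 3 of 4 members fell, where 20.4% of the 388 miRNAs tested in liver fell and 42.3% changed in either direction (limma, Benjamini-Hochberg adjusted p below 0.05). The difference was small at week 1, on 1 slide, and larger at weeks 2 and 6, on another, and the change between weeks was itself not called. The floor enters 2 of these folds, since 2 NASH arrays of miR-144-3p and 4 of miR-144-5p lay at it.

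miR-451a, a regulator of the 14-3-3 zeta mRNA in red cells, was well above background on all 24 arrays. In control liver its level was 1.84 and 2.68 at week 1, 2.53 and 2.68 at week 2, and 1.89 and 2.53 at week 6. In NASH liver it was 2.04 and 1.96 at week 1, 0.74 and 1.67 at week 2, and 0.17 and 1.05 at week 6. At week 1 the NASH arrays lay between the 2 control arrays, and at weeks 2 and 6 both lay below both control arrays, as for 26% and 24.7% of all miRNAs tested in liver. Over all 12 arrays the diets overlapped for each of the 4 members in liver, while 10.6% of all miRNAs had every NASH array below every control array. Each of the 6 NASH arrays was below the control mean of its own week, as for 19.3% of all miRNAs tested in liver. The mean difference was -1.09 (SE 0.27, n = 6 and 6, limma adjusted p = 0.0168). By week it was -0.26, then -1.40 (limma adjusted p = 0.0606) and -1.60 (limma adjusted p = 0.0436), where 5.41%, 12.4% and 16% of all miRNAs fell. The week 6 call was lost when any 1 of 7 arrays was left out: both NASH week 1 arrays (-1.60 each time), both control week 2 arrays (-1.60 each time), control week 6 replicate 1 (-1.90) or 2 (-1.28), and NASH week 6 replicate 1 (-1.16). At week 2 the difference was called without NASH week 2 replicate 2 (-1.86, limma adjusted p = 0.0440). Of 17 other ways of processing, 5 lost the week 6 call and 7 called week 2. At week 1 it was 0.16 without control replicate 2.

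miR-144-3p, the arm of miR-144 that acts on the oxidative stress factor Nrf2 in red cells, followed the same course. In control liver its level was -3.64 and -2.30 at week 1, -2.35 and -2.47 at week 2, and -3.50 and -2.37 at week 6. In NASH liver it was -3.17 and -3.28 at week 1, at the floor and -4.11 at week 2, and at the floor and -4.43 at week 6. Week 1 NASH arrays again lay between the control arrays. At weeks 2 and 6 both NASH arrays lay below both control arrays, as for 26% and 24.7% of all miRNAs tested in liver. The arrays at the floor were not well above background, with intensities of 3.24 and 1.93 against 35.0 to 125 on the control arrays. Over the weeks miR-144-3p differed by -1.55 (SE 0.39, limma adjusted p = 0.0190), and all 6 NASH arrays were below the control mean of their week. By week it was -0.25, -2.38 (limma adjusted p = 0.0395) and -2.02 (limma adjusted p = 0.0743). The week 2 call was lost when any 1 of 5 arrays was left out: either NASH week 1 array (-2.36 each time), control week 2 replicate 1 (-2.34) or 2 (-2.51), or NASH week 2 replicate 1 (-1.70). Of 16 other ways of processing, 6 lost the week 2 call and 3 called week 6. At week 1 it was 0.41 without control replicate 2.

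miR-144-5p, the other arm of the same hairpin, was dim, at an intensity of 15.9 to 32.4 on the control arrays. In control liver its level was -4.92 and -4.30 at week 1, -4.42 and -4.15 at week 2, and -4.62 and -4.31 at week 6. In NASH liver it was -4.95 and -4.92 at week 1 and at the floor on all 4 arrays of weeks 2 and 6. At weeks 2 and 6 both NASH arrays were below both control arrays, by an amount that the floor limits. That held for 26% and 24.7% of all miRNAs tested in liver. miR-144-5p differed by -0.84 over the weeks (SE 0.12, limma adjusted p = 0.00161), with all 6 NASH arrays below the control mean of their week. The difference was -0.32 at week 1, -1.19 at week 2 (limma adjusted p = 0.00594) and -1.01 at week 6 (limma adjusted p = 0.0129). The standard error is held down by the 4 equal values at the floor. The week 6 call was lost without control week 6 replicate 2 (-0.82) or either NASH week 6 array (-0.97 each time). Of 15 other ways of processing, 3 lost the week 2 call and 3 the week 6 call. Its other probe was not well above background on any of the 12 liver arrays and gives no second reading.

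miR-486a-5p, which acts on the mRNA of Foxo1, lay near the floor in liver, with intensities of 12.3 to 24.4 over all 12 arrays. In control liver its level was -5.00 and -4.63 at week 1, -5.15 and -5.03 at week 2, and -5.01 on both arrays at week 6. In NASH liver it was -5.21 and -4.99 at week 1, -4.99 and -4.84 at week 2, and at the floor on both arrays at week 6. NASH arrays were higher than both control arrays at week 2 and lower than both at week 6. The mean difference was -0.19 (SE 0.076, limma adjusted p = 0.0867), with 4 of 6 NASH arrays below the control mean of their week. The week 6 difference of -0.47 (limma adjusted p = 0.0404) compares arrays whose signals differ little before scaling, 12.3 and 20.1 in control against 13.3 and 17.1 on the NASH diet. That call was lost without any 1 of 8 arrays: both NASH week 1 arrays, both NASH week 6 arrays and NASH week 2 replicate 2 (-0.43 each time), control week 2 replicate 2 (-0.49), and control week 6 replicate 1 (-0.52) or 2 (-0.43). It was also lost under 7 of 15 other ways of processing. A call appeared at week 1 without control replicate 1 (-0.51, limma adjusted p = 0.0358). The mean difference was called without control week 1 replicate 1 (-0.28, limma adjusted p = 0.00639) or control week 6 replicate 1 (-0.25, limma adjusted p = 0.0432), and it turned to 0.19 with no scaling and to 0.13 when both tissues were scaled on the probes detected on all 24 arrays.

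**Figure D2:**
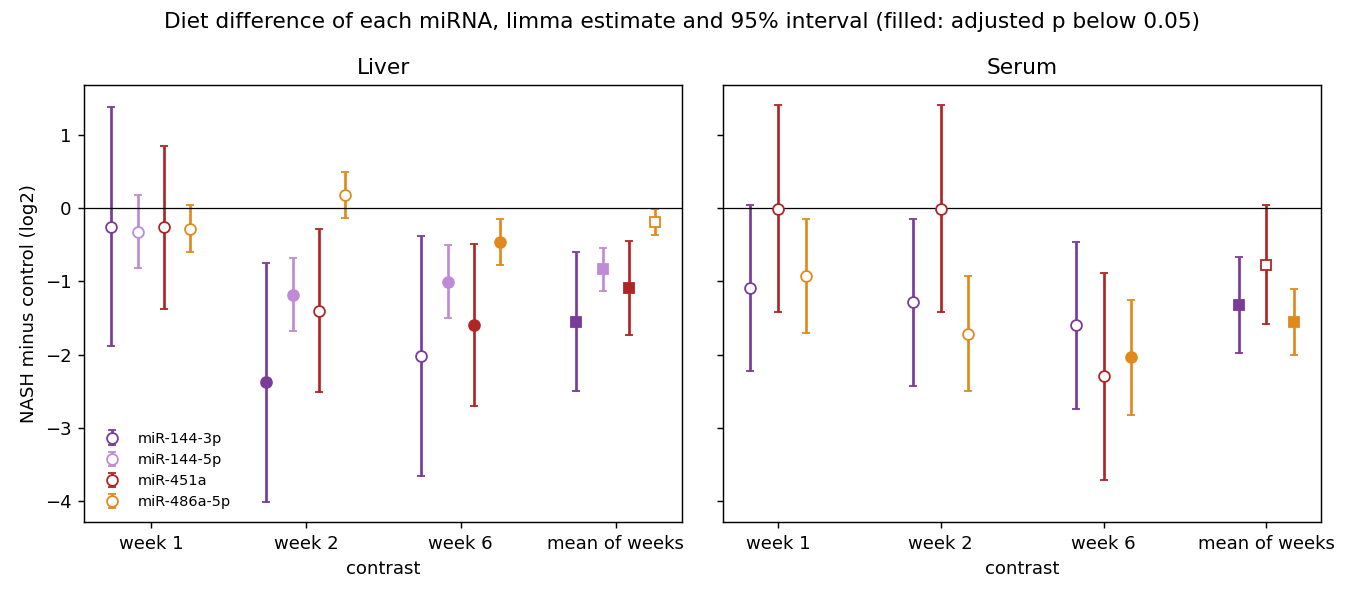
NASH minus control difference (log2, vertical axis) of each miRNA at each week and as the mean of weeks, in liver and serum, from limma with 95% intervals. Filled symbols have an adjusted p below 0.05. In liver the 3 products of the Mir144 and Mir451a hairpins lie between -0.32 and -0.25 at week 1 and between -2.38 and -1.01 at weeks 2 and 6, while in serum miR-451a lies next to 0 until week 6, when it is -2.30.

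The products of the 2 neighbouring hairpins ran together over the liver arrays. Over the 12 arrays, Pearson's r of miR-144-3p with miR-451a was 0.979 and Spearman's rho was 0.977 (permutation p = 1e-05 for each, the smallest that 100000 permutations can give, 9e-05 after adjustment over 9 pairs), and r was 0.975 without the 2 arrays farthest from the median. It was 0.982 for deviations from the group means. The 2 deviations of a group mirror each other, so that such values, here and further on, rest on 6 differences between 2 arrays. Replicate 1 always stood in slide row 1 and replicate 2 in row 2, so that these differences and the slide row cannot be told apart. miR-144-3p with miR-144-5p gave r of 0.912 and rho of 0.884 (adjusted permutation p = 9e-05 and 0.00108), and miR-144-5p with miR-451a gave 0.890 and 0.918 (adjusted permutation p = 0.00012 and 0.00027). Without the 2 farthest arrays these were 0.935 and 0.852. miR-486a-5p gave r of 0.467, 0.449 and 0.594 with miR-144-3p, miR-144-5p and miR-451a, and adjusted permutation p of 0.0780 to 0.149. For deviations from the group means the order differed: r was 0.62 for miR-144-3p with miR-144-5p and 0.61 for miR-144-5p with miR-451a, while miR-486a-5p gave 0.57, 0.77 and 0.57 with the same 3 members. Arrays at the floor, 4 for miR-144-5p and 2 each for miR-144-3p and miR-486a-5p, enter all these values. The permutations, here and in serum, shuffled all 12 arrays of a tissue without regard to diet or week. A shared diet difference alone can therefore give a small p. Closeness of this order was not particular to the hairpin products: in liver miR-451a had r of 0.988 with miR-126a-5p and 0.979 with miR-30b-5p.

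**Figure D3:**
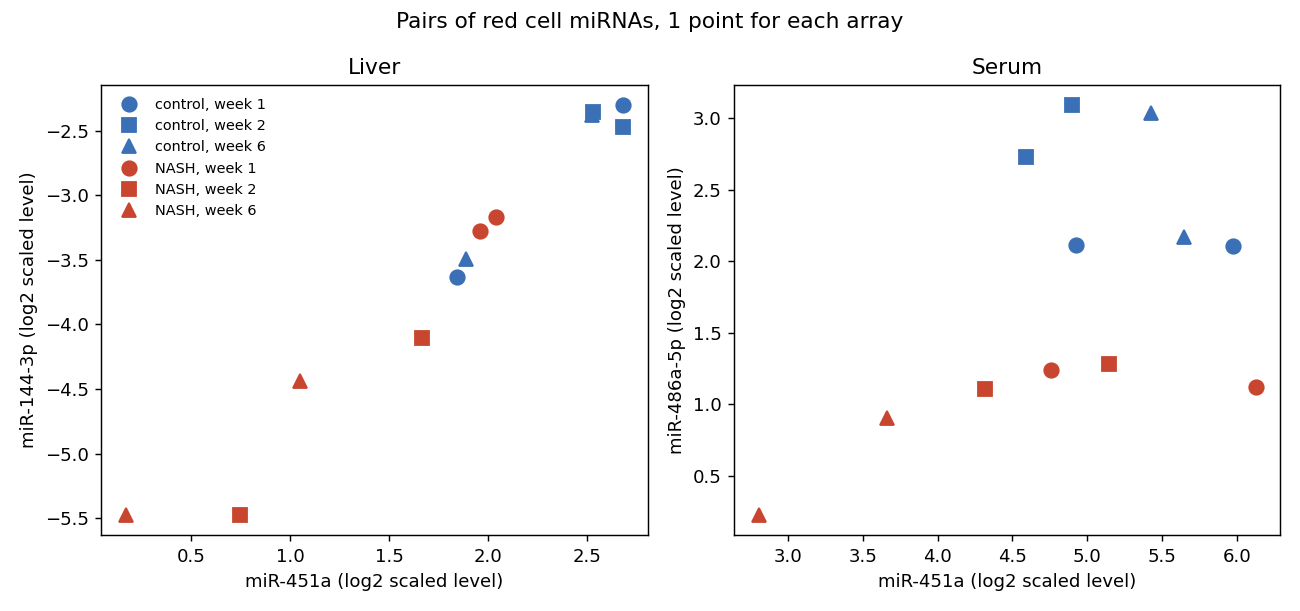
Left, miR-144-3p (vertical) against miR-451a (horizontal) on the 12 liver arrays, and right, miR-486a-5p against miR-451a on the 12 serum arrays, all as log2 scaled levels. Blue is control and red the NASH diet, with a circle for week 1, a square for week 2 and a triangle for week 6. In liver the points form 1 line from the NASH week 6 arrays to the control arrays, and in serum the NASH arrays lie below the control arrays in miR-486a-5p over most of the range of miR-451a.

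The difference of 2 miRNAs on the same array does not depend on how arrays are scaled, as long as neither lies at the floor. In liver, miR-451a minus miR-23a-3p, a miRNA of many cell types that red cells carry little of, was 0.96 to 1.75 on the control arrays and -1.14 to 0.73 on the NASH arrays. The 2 ranges did not overlap, and the NASH minus control difference was -1.59 (exact permutation of diet within weeks, two-sided p = 0.00926, the smallest that 216 assignments allow, 0.0741 after adjustment over 8 such differences). It was -0.69 at week 1, -1.93 at week 2 and -2.15 at week 6. miR-23a-3p itself rose by 0.50 in NASH liver (SE 0.088, limma adjusted p = 0.00400). miR-451a and miR-23a-3p were above the floor on every array of both tissues. miR-486a-5p minus miR-451a, with 2 arrays at the floor, was higher on the NASH diet by 0.90 (exact p = 0.0463, adjusted 0.163), a p that was above 0.05 without 7 of the 12 arrays in turn. Those were control week 1 replicate 2 (0.82), NASH week 1 replicate 2 (0.84), control week 2 replicate 1 (0.90) or 2 (0.89), control week 6 replicate 1 (1.00) or 2 (0.79), and NASH week 6 replicate 1 (0.75). The floor sets part of the other differences, because 2 NASH arrays of miR-144-3p and 4 of miR-144-5p lay at it. miR-144-3p minus miR-451a differed by -0.46 with the floor (exact p = 0.0648) and by -1.24 from the intensities with no floor (exact p = 0.0556), an alternative chosen after the data were seen. miR-144-3p minus miR-144-5p differed by -0.71 (exact p = 0.0926) and by -0.74 with no floor (exact p = 0.222). Without control week 1 replicate 1 these differences with the floor were -0.55 and -0.83 (exact p = 0.00926 each). For miR-144-5p minus miR-451a the floor turned the sign, from -0.51 with no floor (exact p = 0.0185) to 0.25 with it (exact p = 0.361), and no direction is given.

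In serum, miR-486a-5p and miR-144-3p were lower on the NASH diet, miR-451a was not called, and miR-144-5p was not detected. Averaged over weeks, miR-486a-5p fell to 0.339 times control. miR-144-3p fell by 1.33 on the log2 scale, a size that the floor sets in part. Thus 2 of the 3 members tested fell, where 13.8% of the 426 miRNAs tested in serum fell and 18.8% changed in either direction. After scaling, all 6 NASH arrays of both were below all 6 control arrays, which held for 4.23% of the miRNAs tested in serum. miR-451a, from the same primary transcript as miR-144-3p, had nearly equal means in both diets at weeks 1 and 2 and was lower on both NASH arrays at week 6.

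miR-486a-5p in control serum was 2.12 and 2.11 at week 1, 2.73 and 3.09 at week 2, and 2.17 and 3.04 at week 6. In NASH serum it was 1.24 and 1.12 at week 1, 1.11 and 1.28 at week 2, and 0.90 and 0.23 at week 6. After scaling, the lowest control array, at 2.11, was above the highest NASH array, at 1.28. Before scaling the diets overlapped, with intensities of 754 to 2765 in control and 478 to 1319 on the NASH diet. The mean difference was -1.56 (SE 0.19, n = 6 and 6, limma adjusted p = 0.00373). By week it was -0.93 (limma adjusted p = 0.350), -1.72 (limma adjusted p = 0.0514) and -2.04 (limma adjusted p = 0.0157), where 0.939%, 1.41% and 6.57% of all miRNAs fell. The week 2 difference was called without control week 2 replicate 1 (-1.90), control week 6 replicate 1 (-1.62) or 2 (-1.66), or NASH week 6 replicate 1 (-1.72), and the week 6 call was lost without NASH week 6 replicate 2 (-1.66, limma adjusted p = 0.0887). Of 16 other ways of processing, 4 called week 2, normexp among them, and 3 lost the week 6 call. Its second probe gave a mean difference of -1.58. The opposite arm behaved alike: miR-486a-3p fell by 1.37 (SE 0.19, limma adjusted p = 0.00479) and miR-486b-3p, from the gene copy on the opposite strand, fell by 1.11 (SE 0.13, limma adjusted p = 0.00343). miR-486a-5p and miR-486b-5p are known to have the same mature sequence, so that a probe of the former reads both.

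miR-144-3p in control serum was -3.53 and -3.17 at week 1, -2.83 and -4.00 at week 2, and -2.58 and -3.65 at week 6. In NASH serum it was at the floor and -4.18 at week 1, at the floor and -4.69 at week 2, and at the floor on both arrays at week 6. All NASH arrays lay below all control arrays, 4 of 6 at the floor. The separation at week 2 rests in part on the scaling, since control replicate 2 of that week was not well above background and had an intensity of 9.03, below the 13.1 and 14.5 of the NASH arrays. The signals were weak, with intensities of 9.03 to 71.5 in control and 4.82 to 32.0 on the NASH diet. At week 6 neither NASH array was well above background, so that the dim side is known only as a limit. The limit was the higher of the array's lowest signal well above background and its own. With both sides taken as normalized log2 means, the control mean lay 3.49-fold above that limit. That limit averaged -4.92, below the floor of -4.71, so that this fold is larger than the difference taken at the floor. The fold holds for these arrays and this scaling and leaves out the array-to-array spread, so that it is no lower bound on the diet difference. The limma difference at week 6 had a 95% interval of -2.74 to -0.46. Under other ways of processing it ran from -2.73 to -0.57. Over the weeks the difference was -1.33 (SE 0.27, limma adjusted p = 0.0193). By week it was -1.09, -1.29 and -1.60, none of them called (limma adjusted p = 0.464, 0.243 and 0.0736). The mean call was lost when any 1 of 5 arrays was left out: control week 1 replicate 2 (-1.26), NASH week 1 replicate 1 (-1.23), NASH week 2 replicate 1 (-1.32) or 2 (-1.33), or NASH week 6 replicate 2 (-1.28). The week 6 difference was called without control week 2 replicate 1 (-1.60, limma adjusted p = 0.0489) or control week 6 replicate 2 (-2.11, limma adjusted p = 0.0431). It was also called under 2 of 16 other ways of processing, normexp and a lower floor. The week 2 difference was called under normexp alone, which in the mean of weeks called 349 of 426 serum miRNAs lower.

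miR-451a in control serum was 4.92 and 5.97 at week 1, 4.59 and 4.90 at week 2, and 5.64 and 5.42 at week 6. In NASH serum it was 4.76 and 6.12 at week 1, 4.32 and 5.15 at week 2, and 3.67 and 2.81 at week 6. At weeks 1 and 2 the arrays of the diets interleaved, and the 2 arrays of a group differed by up to 1.37, far more than the diets did. At week 6 both NASH arrays were the lowest of the 12, and 30.3% of all miRNAs tested in serum had both below both control arrays of that week. Averaged over weeks, miR-451a differed by -0.77 (SE 0.34, limma adjusted p = 0.201). By week it was -0.0084, -0.011 and -2.30 (95% interval -3.71 to -0.88, limma adjusted p = 0.0548). The week 6 difference was called without NASH week 1 replicate 1 (limma adjusted p = 0.0444) or 2 (limma adjusted p = 0.0429), each time at -2.30. It was also called under 8 of 17 other ways of processing, normexp among them, at -2.46 to -1.47, so that whether it passes depends on the setting. Before scaling, the intensity was 4290 and 2857 on the week 6 NASH arrays against 8373 and 8142 in control, and 5527 and 4290 in control against 7710 and 13254 on the NASH diet at week 2.

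miR-144-5p was not well above background on any of the 12 serum arrays, and the intensity of its brighter probe reached 4.26 at most. It was therefore not tested in serum, and no difference was detectable at this signal.

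The serum haemolysis index, miR-451a minus miR-23a-3p on the same array, is free of the scaling. In control serum it was 1.96 and 2.57 at week 1, 1.58 and 1.14 at week 2, and 2.23 and 2.50 at week 6. In NASH serum it was 2.35 and 3.57 at week 1, 1.38 and 2.38 at week 2, and -0.11 and -0.25 at week 6. The mean of the NASH arrays was above control by 0.70 at week 1 and 0.52 at week 2 and below it by 2.54 at week 6, where the 2 NASH values were the lowest of the 12. By week, miR-451a itself differed by -0.0084, -0.011 and -2.30, and the reference miR-23a-3p by -0.70, -0.53 and 0.25. The higher index at weeks 1 and 2 thus went with a lower reference and not with more miR-451a. Over the weeks the index differed by -0.44 (exact permutation of diet within weeks, two-sided p = 0.417), and it turned to 0.28 with miR-103-3p as the reference, which was itself at the floor on some serum arrays. miR-486a-5p minus miR-451a differed by -0.92, -1.70 and 0.26 at weeks 1, 2 and 6, a mean of -0.79 (exact p = 0.102), and reached an exact p of 0.0463 without control week 6 replicate 1 (-0.97). No array of this pair was at the floor. miR-144-3p minus miR-451a had 4 NASH arrays at the floor, among them both of week 6, and differed by -1.09, -1.28 and 0.70 with it, a mean of -0.56 (exact p = 0.269). From the intensities with no floor, the alternative chosen after the data were seen, it differed by -1.43, -1.36 and -0.44. The mean was -1.07 (exact p = 0.0185, not adjusted). The sign at week 6 thus differed with and without the floor. The NASH arrays of that week, at miR-144-3p intensities of 8.66 and 4.82, were not well above background, so that no direction is given for it.

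Across the serum arrays the members did not follow one line as in liver. miR-144-3p and miR-451a gave r of 0.520 and rho of 0.594 (adjusted permutation p = 0.116 and 0.0818), and r was 0.632 without the 2 arrays farthest from the median. miR-451a and miR-486a-5p gave r of 0.511 and rho of 0.434 (adjusted permutation p = 0.116 and 0.242), which rested on the 2 farthest arrays, since r was -0.018 without them. In liver that pair had r of 0.594 and rho of 0.210, which did not pass either. For miR-144-3p and miR-486a-5p the diets form separate groups of points, so that no pooled relation is given, and deviations from the group means went opposite ways (r of -0.70). The floor enters that value, since 4 NASH arrays of miR-144-3p lay at it, among them both of week 6.

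Whether the diet effect differed between the tissues was asked in a joint limma fit of the 24 arrays, in which 34.8% of the 293 miRNAs tested in both tissues differed. The NASH minus control difference of miR-486a-5p, -1.56 in serum and -0.19 in liver, was lower in serum by 1.37 on the log2 scale (SE of the difference 0.20, limma adjusted p = 1.21e-04). That of miR-144-3p differed by 0.22 (SE 0.47, limma adjusted p = 0.736) and that of miR-451a by 0.32 (SE 0.43, limma adjusted p = 0.569). In control serum miR-144-3p averaged -3.29, near the floor of -4.71, and 4 of 6 NASH serum arrays and 2 of 6 NASH liver arrays lay at the floor. The floor limits the fall that could be read, so that its 0.22 does not show a like effect in both tissues. In control liver miR-486a-5p averaged -4.97, near the floor of -5.47, so that a fall of the size seen in serum could not have been read there. With all probes in the scaling, the miR-486a-5p difference was -0.69 and was not called (limma adjusted p = 0.126).

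Between weeks, no member was called. The test of whether the diet effect differed between weeks gave limma adjusted p of 0.225 to 0.441 for the 4 members in liver and 0.719 to 0.962 for the 3 in serum, where 3.35% and 0.469% of all miRNAs passed. At an unadjusted p below 0.05 it passed for 1 of 4 in liver, miR-486a-5p, and 1 of 3 in serum, miR-451a. Among week contrasts within a diet, limma called 0 of 24 for liver and 0 of 18 for serum, where 3.82% and 0.704% of such contrasts over all miRNAs were called. Of the members' contrasts, 6 and 3 had an unadjusted p below 0.05. The shares over all miRNAs are for adjusted p, and none is given at the unadjusted threshold. No excess can therefore be read from the unadjusted counts, here or for the lists further on. The lowest adjusted p was that of miR-486a-5p in NASH liver from week 2 to week 6 (-0.56, limma adjusted p = 0.0843). On the control diet the week means of miR-451a were 2.26, 2.61 and 2.21 in liver and 5.45, 4.74 and 5.53 in serum, and no 2 neighbours in that order were called as different.

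Among other miRNAs that red cells or reticulocytes hold in quantity, none of those tested in liver was called lower. Of 13 listed, 12 were on the array and 6 were tested in liver, where 2 rose, 0 fell and 4 were not called by limma (4 of 6 had an unadjusted p below 0.05). Of all 388 miRNAs tested in liver, 85 rose and 79 fell. miR-93-5p rose by 0.17 (limma adjusted p = 0.0190) and miR-185-5p by 0.14 (limma adjusted p = 0.00314), while miR-16-5p differed by -0.19 (limma adjusted p = 0.293). The list's median difference was 0.041 against 0 over all miRNAs tested. In serum 4 of the 7 tested fell and 3 were not called, with a median of -0.78 against -0.11 over all miRNAs tested. Of all 426 miRNAs tested in serum, 59 fell and 21 rose. The listed miRNAs that fell were miR-486a-3p, miR-486b-3p, miR-93-5p (-0.81) and miR-25-3p (-0.78, limma adjusted p = 0.0193). miR-486a-3p and miR-486b-3p come from the same gene pair as the member miR-486a-5p. Neither was tested in liver, so that the counts of the tissues rest on different sets. Many of the listed miRNAs are made in most cell types, unlike the 4 members.

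miRNAs of other cells moved beside the members, and their part in the members' differences was not tested. Over all miRNAs tested, limma called 85 of 388 higher and 79 lower in liver, and 21 of 426 higher and 59 lower in serum. In liver 4 of 6 leukocyte miRNAs rose and 0 fell, among them miR-342-3p by 2.41, miR-223-3p by 1.73 and miR-155-5p by 1.28, with a summed level of 1.50 to 2.09 on the NASH arrays against 0.12 to 0.62 in control. Of 8 hepatocyte miRNAs in liver 7 fell, with a summed level of 6.05 to 6.98 against 7.37 to 7.57. The endothelial and platelet list was split, with miR-126a-5p down by 0.94, miR-126a-3p down by 0.53 and miR-223-3p and miR-24-3p up. In serum 5 of 7 hepatocyte miRNAs rose, and miR-122-5p was 14.1 times control. Of 6 leukocyte miRNAs in serum 3 fell, including miR-142a-3p by 1.34 and miR-150-5p by 1.32, and 1 rose, miR-342-3p. None of the 5 endothelial and platelet miRNAs tested in serum was called by limma (1 of 5 had an unadjusted p below 0.05). Of the haemolysis references, 0 of 3 were called in serum (2 of 3 had an unadjusted p below 0.05), and miR-103-3p differed by -1.05 (limma adjusted p = 0.0585).

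The miRNAs whose levels ran most like the members' over the 12 arrays of a tissue were named by Pearson's r among those detected on all 12, as a description. In liver they were miR-15a-5p (0.972), miR-101c (0.970) and miR-101a-3p (0.966) for miR-144-3p, and miR-126a-5p (0.988), miR-30b-5p (0.979) and miR-101c (0.976) for miR-451a. For miR-144-5p they were miR-26a-5p (0.946), miR-30e-5p (0.943) and miR-30a-5p (0.941). For miR-486a-5p they were miR-361-5p (0.782), miR-345-5p (0.758) and miR-28c (0.755). In serum they were miR-199a-3p (0.922), miR-16-5p (0.908) and miR-20a-5p (0.895) for miR-451a, miR-214-3p (0.942), miR-5119 (0.919) and miR-375-3p (0.912) for miR-486a-5p, and miR-3968 (0.857), miR-133a-3p (0.851) and miR-133b-3p (0.849) for miR-144-3p. Both diets enter these values, so that a shared diet difference raises r. For deviations from the group means, r was 0.72 to 0.98 for the companions of miR-144-3p, miR-144-5p and miR-451a in liver and 0.90 to 0.93 for those of miR-451a in serum. It was 0.19, 0.37 and 0.52 for those of miR-486a-5p in liver, 0.81, 0.65 and 0.29 for those of miR-486a-5p in serum, and 0.74, 0.38 and 0.38 for those of miR-144-3p in serum, each in the order named. Levels on 1 array share that array's labelling and scaling.

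The 3 members with a RefSeq sequence are poor in G and C, and so were some of those companions. The GC content is 30.0% for miR-144-3p, 30.4% for miR-144-5p and 36.4% for miR-451a. Among the companions it is 33.3% for miR-101a-3p, 36.8% for miR-101c and 39.1% for miR-20a-5p. The other companions with a sequence lie at 40.9%, as miR-15a-5p does, to 63.2%. Over the 186 miRNAs detected on all 12 liver arrays that have a sequence, r of GC content with the diet difference was 0.31, and over 157 in serum it was 0.024. The 2 arrays of 1 group also differed by GC content, with r from -0.68 to 0.48 in the 6 liver groups and from -0.47 to 0.60 in the 6 serum groups. Of the 31 liver miRNAs with a GC content up to 40%, 24 had a lower level on the NASH diet, with a median difference of -0.41, against 84 of 155 and -0.04 above 40%. Removing each array's slope on GC content, an alternative chosen after the data were seen, left liver differences of -1.17 for miR-144-3p (limma adjusted p = 0.00428), -0.47 for miR-144-5p (limma adjusted p = 0.0134) and -0.83 for miR-451a (limma adjusted p = 0.00293). In that fit the week 2 difference of miR-144-5p was -0.37 and no longer called, and the week 2 difference of miR-451a was -0.83 and called. The serum differences were -1.29 for miR-144-3p and -0.75 for miR-451a. The slope over 10% of GC content was -0.13 to 0.34 on the NASH liver arrays and -0.30 to 0.12 on the control liver arrays.

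**Figure D4:**
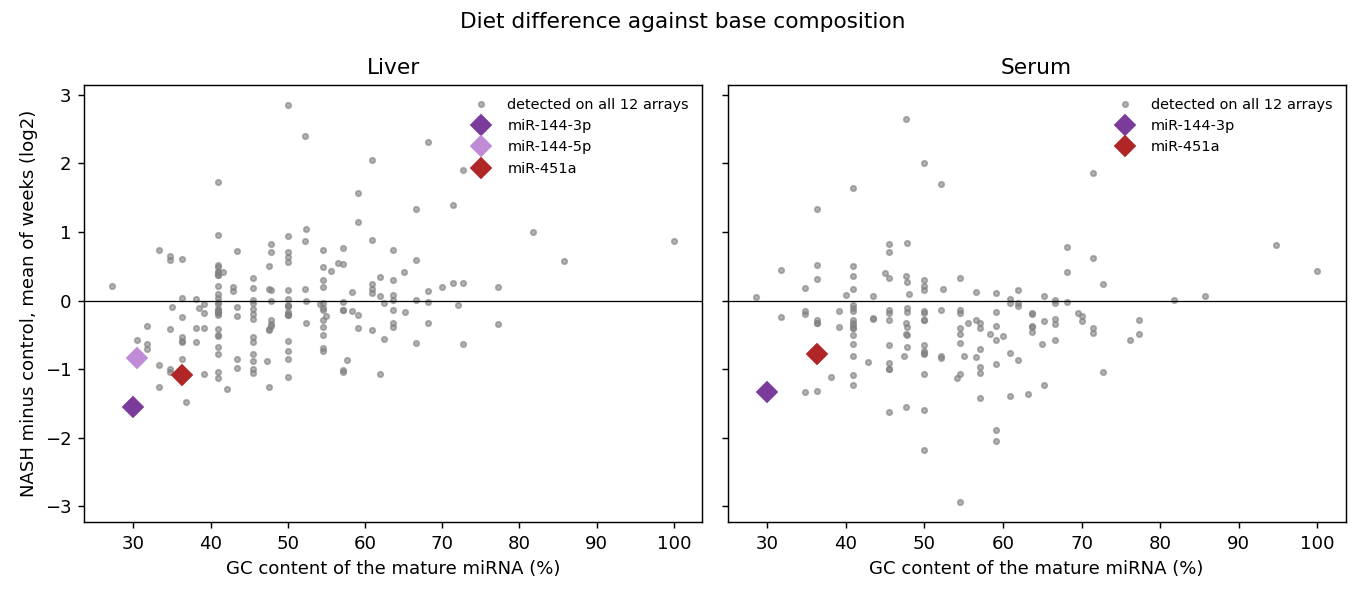
NASH minus control difference, mean of weeks (log2, vertical axis), against the GC content of the mature miRNA (percent, horizontal axis) in liver and serum. Grey points are miRNAs detected on all 12 arrays of the tissue and diamonds are the red cell miRNAs with a sequence, which lie at a GC content of 30.0% to 36.4% and at differences of -1.55 to -0.77.

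How far the diet difference of the members reached depended on the scaling. With no scaling between arrays, the median difference of the miRNAs detected on all arrays was 0.30 in liver and 0.44 in serum, against -0.06 and -0.28 as reported. With no scaling the liver differences were -1.08 for miR-144-3p, -0.46 for miR-144-5p and -0.66 for miR-451a, and the serum differences were -0.77 for miR-144-3p and -0.78 for miR-486a-5p, none of them called. miR-451a in serum was then at 0.013. Normexp background correction gave -0.84 for miR-144-3p and -0.40 for miR-144-5p in liver and -0.71 for miR-144-3p in serum, all called. With normexp 90 of 388 miRNAs in liver and 349 of 426 in serum were called lower, so that a serum call there says little about a member. Quantile normalization gave -0.69 for miR-451a in liver (limma adjusted p = 0.0606).

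**Figure D5:**
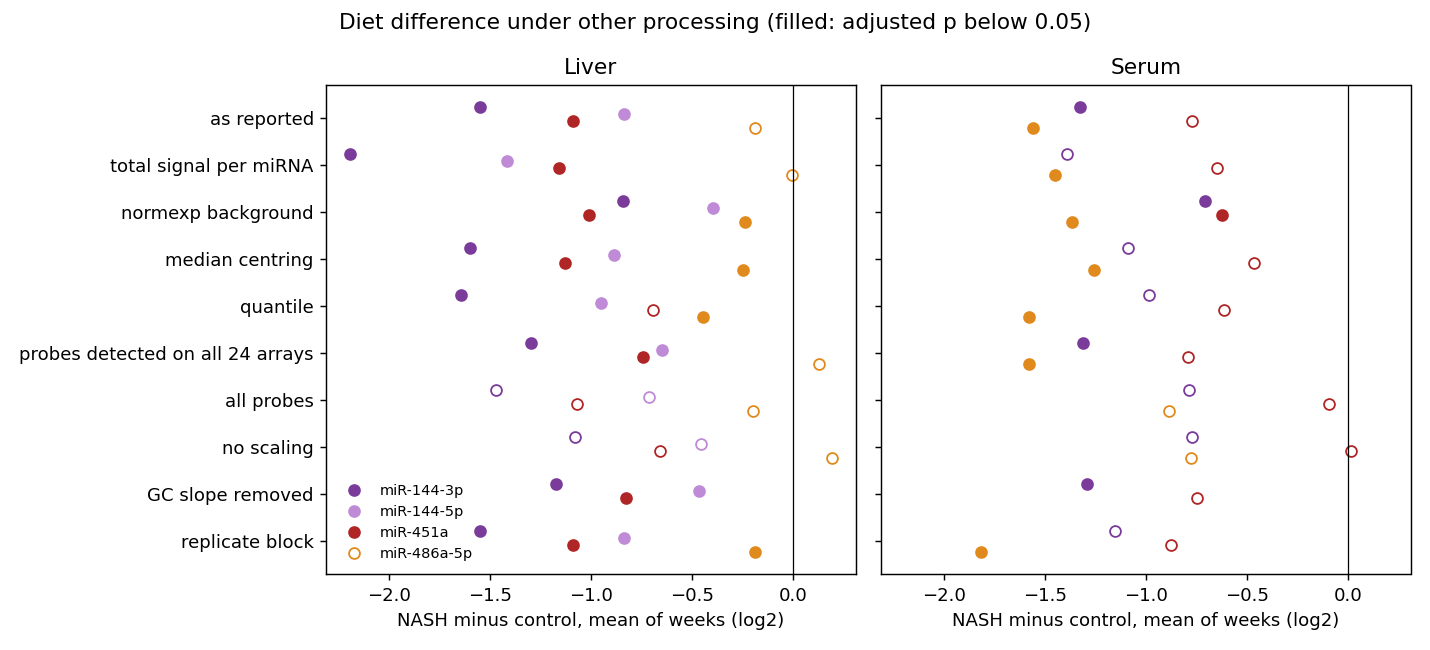
Mean NASH minus control difference (log2, horizontal axis) of each miRNA under each way of processing (rows), in liver and serum; the serum fit with the replicate block leaves out 1 NASH week 6 array. Filled symbols have a limma adjusted p below 0.05. The hairpin products miR-144-3p, miR-144-5p and miR-451a stay below 0 in liver in every row shown, and miR-144-3p and miR-486a-5p do so in serum.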

How the data were processed

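The deposited files hold background-subtracted intensity per spot, per the file headers, with no normalization between arrays; the submitters' processing notes name Agilent Feature Extraction 11.5. The members and lists were chosen with earlier results of these data known. Control spots and outlier-flagged spots (2.45% to 6.01% of an array) were left out, the 15 spots of a probe averaged, and each array scaled to its 75th percentile over those probes that all 12 arrays of a tissue had well above background (299 in liver, 253 in serum). As the floor, each array's 5th percentile of detected scaled signals was taken, and then the median of these. miRNAs detected on at least 2 arrays were tested with limma (version 3.58.1, R 4.3.3, lmFit and eBayes) on 6 diet-by-week groups. The script was tested on simulated data. Differences of 2 miRNAs on an array were tested with an exact permutation of diet within weeks. Named beside the members were the 3 miRNAs most correlated with each, miR-23a-3p, and up to 3 of each list with the largest called difference; other listed miRNAs named were chosen after their values were seen. A median of 3.06% to 14.2% (coefficient of variation) separated the spots of a member's probe, and the number of arrays limits the precision. The alternatives were other signals, background corrections, scalings, probes, floors, filters, variance models, blocks and left-out arrays.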

Additional observations from a re-analysis of the deposited data

Results flagged for a closer look

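The measured diet difference of miR-486a-5p was 1.37 lower in serum than in liver on the log2 scale (-1.37, limma adjusted p = 1.21e-04). All 6 NASH serum arrays and 4 of 6 NASH liver arrays were below the control mean of their week. All 6 were so for 18.8% of miRNAs tested in serum and 19.3% in liver. The serum minus liver value stayed between -1.48 and -1.18 when each of the 24 arrays was left out in turn. In liver the control mean was -4.97 and the floor -5.47, so that a fall like the -1.56 in serum could not have been read there. Leaving out arrays does not lift that limit, and the test cannot tell it from a different diet effect. The part of the floor in the difference was not tested.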

How the results depend on the processing

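In liver the mean differences of miR-144-3p, miR-144-5p and miR-451a stayed below 0 under every alternative run and were called without each array in turn. Calls were lost with all probes in the scaling (-1.47, -0.71 and -1.07 in that order), with no scaling (-1.08, -0.46 and -0.66), for miR-451a with quantile normalization (-0.69), and with no detection filter for miR-144-3p (-1.55) and miR-451a (-1.09), where more miRNAs were tested. miR-486a-5p in liver was called with normexp (-0.24), median centring (-0.25), quantile normalization (-0.45) and the slide row as a block (-0.19), and was 0.19 with no scaling and 0.13 with probes detected on all 24 arrays. It ran from -0.28 to -0.14 without single arrays. In serum miR-144-3p lost its call with the total signal (-1.39), all probes (-0.79), no scaling (-0.77), median centring (-1.09), quantile normalization (-0.99) and no detection filter (-1.33), and ran from -1.50 to -1.10 without single arrays. miR-451a in serum was called with normexp (-0.63), where 349 of 426 miRNAs were called lower. It was also called among miRNAs detected on all 12 arrays (-0.77), and was 0.013 with no scaling. miR-486a-5p in serum lost its call with all probes (-0.89) and no scaling (-0.78), and its serum minus liver difference with all probes (-0.69). The haemolysis index was 0.28 with miR-103-3p, and no value was possible with miR-191-5p, which was at the floor on all serum arrays. No GC alternative was possible for miR-486a-5p. The cause of these changes was not tested.

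Replicate numbers were not taken to pair the samples, since same-numbered deviations correlated at -0.46, 0.33 and 0.44 in liver weeks 1, 2 and 6, and in serum at 0.53, 0.13 and 0.18, where 1 array of week 6 carries no number. With the replicate block, whose serum fit drops the 1 NASH week 6 array whose label has no number, miR-144-3p in serum was -1.15 (limma adjusted p = 0.120) and miR-486a-5p in liver was -0.19 (limma adjusted p = 0.0126); no other mean call changed. In liver the block also ended the week 2 call of miR-144-3p (limma adjusted p = 0.0567) and the week 6 call of miR-451a (limma adjusted p = 0.0506).

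Single week calls changed as well. In liver miR-144-3p at week 2 also lost its call with the total signal (limma adjusted p = 0.0546), all probes (0.101), no scaling (0.227), probes detected on all 24 arrays (0.0553) and no detection filter (0.245), and was called at week 6 with normexp, the slide row as a block and the GC slope removed. miR-451a in liver lost its week 6 call with all probes, no scaling, quantile normalization and no detection filter. miR-451a in serum was called at week 6 with the total signal (0.0314), normexp (0.00412), median centring (0.0452), quantile normalization (0.0243), probes detected on all 24 arrays (0.0476), a lower floor (0.00246), miRNAs detected on all 12 arrays (0.000327) and the GC slope removed (0.0182). In the mean of weeks normexp called 349 of 426 serum miRNAs lower.

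Directions turned for uncalled values. With no scaling the week 1 liver differences were 0.25 for miR-144-3p, 0.18 for miR-144-5p, 0.25 for miR-451a and 0.23 for miR-486a-5p. miR-486a-5p in liver at week 2 was -0.18 with normexp, -0.17 with all probes and -0.38 with quantile normalization. miR-451a in serum at week 1 was 0.031 with the total signal, 0.033 with normexp, 0.20 with all probes, 0.22 with no scaling and 0.25 with median centring. At week 2 it was 0.12, 0.18, 1.05, 1.05 and 0.36 in that order, 0.13 with probes detected on all 24 arrays and 0.010 with its dimmer probe. Without single arrays, week 1 differences ran from -0.96 to 0.41 for miR-144-3p and from -0.72 to 0.16 for miR-451a in liver, and miR-451a in serum ran from -0.69 to 0.68 at week 1 and from -0.43 to 0.40 at week 2. miR-144-5p minus miR-451a in liver was -0.25 with the total signal and -0.51 with no floor. The serum correlation of miR-144-3p and miR-486a-5p was -0.70 over deviations from group means, and that of miR-451a and miR-486a-5p was -0.018 without the 2 farthest arrays. Dim signal limits miR-144-3p, miR-144-5p and miR-486a-5p in liver and miR-144-3p in serum, where 2, 4, 2 and 4 of 12 arrays were at the floor.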
